A study of Mus musculus with 30 samples.

Results

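Phox2a, Ret, Tubb3, Elavl4, Sox10, S100b and Erbb3 are genes used to follow the intrinsic neurons and glia of the airway wall. These 7 genes were listed by name, with no threshold on their values, and each was found by its gene identifier among the 53715 genes of the count tables. The neurons sit in small ganglia along the trachea and the large bronchi and drive contraction of airway smooth muscle. They arise from neural crest cells that migrate into the foregut and its airway outgrowths, follow RET signals as they do so, and become neurons under transcription factors such as PHOX2A or glia under SOX10. Neuregulin signals through ERBB3 keep Schwann cell precursors and glia alive along nerves, and the S100B protein is a common glial stain that is also made by cartilage cells.

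The tissue came from mouse embryos in which Myocd, a coactivator that switches on smooth muscle genes, was deleted by Cre. Every mutant was labelled Tbx4rtTAi/+; tetOcrei/+; MyocdF/F, so both Myocd alleles could be cut wherever the Tbx4-driven transactivator turned on the tetracycline-dependent Cre (a system used to reach the mesenchyme of lung and trachea). The controls were labelled Tbx4rtTAi/+; tetOcrei/+; MyocdF/+ and thus carried the same transgenes and 1 floxed allele, except for E13.5 control replicate 1, which was labelled MyocdF/F with no transgene. At E13.5 the lobes of both sides were taken from 5 control and 5 mutant embryos. At E18.5 the right lobes gave 4 control and 6 mutant lungs, beside 4 control and 6 mutant tracheas, each sequenced as its own library of whole tissue. In such bulk RNA, fewer neurons or glia and less RNA of a gene in each cell cannot be told apart.

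Libraries held 11.7 to 32.8 M counted reads. The smooth muscle markers Acta2, Myh11, Cnn1, Tagln, Lmod1 and Synpo2 together ran from 503 to 627 CPM (reads scaled to an equal library size) in E13.5 control lungs and from 143 to 315 CPM in the mutants, and from 583 to 869 CPM in control tracheas and 131 to 307 CPM in mutant tracheas. At E18.5 the lungs were closer, at 238 to 278 CPM in controls and 203 to 219 CPM in mutants. Myocd itself was still read in every library. It was at 13.02 CPM ± 3.99 in control and 10.6 CPM ± 3.21 in mutant lungs at E13.5 (SD, n = 5 each), and at 9.26 CPM ± 2.52 (SD, n = 4) in control and 7.23 CPM ± 1.88 (SD, n = 6) in mutant lungs at E18.5. In trachea the mutant mean, 5.62 CPM ± 1.997 (SD, n = 6), was above the control mean, 4.77 CPM ± 2.95 (SD, n = 4). Counts are for the whole gene and do not single out the floxed part, so the Myocd total does not check the genotype. Why Myocd reads remained in the mutants was not tested. Trachea control replicate 2 stood apart from the other tracheas in its neuron genes and held 622 CPM of the atrial myosin gene Myh6, against 12.1 to 65.9 CPM in the other control tracheas. It was also the shallowest library and had the lowest Myocd of the tracheas (0.888 CPM), and results that rest on it are given with and without it. Myh6 was also read at 4.69 to 286 CPM in the mutant tracheas and at 119 to 301 CPM in the E18.5 lungs.

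The genes lie apart from each other in the genome (GRCm38, GENCODE): Phox2a at chr7:101818313-101822726 on the plus strand, Ret at chr6:118151745-118197718 on the minus strand and Tubb3 at chr8:123411424-123422015 on the plus strand. Elavl4 lies at chr4:110203722-110351909 and Sox10 at chr15:79154908-79165240, both on the minus strand, S100b at chr10:76253853-76261159 on the plus strand and Erbb3 at chr10:128567523-128589652 on the minus strand. For Phox2a, 95 of its 2035 exon bases (4.67%) overlap exons of Inppl1 on the other strand, where reads cannot be assigned without strand, and the other 6 genes share no exon base with another gene. No stretch of 75 bases, the read length, in the transcripts of these 6 genes also occurs in a transcript of another gene, which includes Tubb3 among the many beta tubulins.

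RefSeq start sites (GRCm38.p6) were listed for 4 of the genes. The bases before the start are shown for a neuron gene, a glial gene and the Elavl4 start that held motifs, because they differ in base composition and in the motifs found. In the Phox2a and S100b sequences the capitals mark CG pairs, and in the Elavl4 sequence they mark an E-box (CAGCTG) followed by a CArG box, the element bound by the partner of Myocardin, SRF.
Phox2a, chr7:101818063-101818312, plus strand: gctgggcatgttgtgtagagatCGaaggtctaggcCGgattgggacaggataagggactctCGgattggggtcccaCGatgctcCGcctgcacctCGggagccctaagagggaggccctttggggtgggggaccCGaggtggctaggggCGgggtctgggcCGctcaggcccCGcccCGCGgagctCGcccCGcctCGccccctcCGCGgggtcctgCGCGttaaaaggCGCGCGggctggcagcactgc
S100b, chr10:76253586-76253835, plus strand: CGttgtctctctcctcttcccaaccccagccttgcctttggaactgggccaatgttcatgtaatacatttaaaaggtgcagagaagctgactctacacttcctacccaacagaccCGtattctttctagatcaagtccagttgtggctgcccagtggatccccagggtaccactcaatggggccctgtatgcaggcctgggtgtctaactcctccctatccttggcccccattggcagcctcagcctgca
Elavl4, chr4:110287528-110287777, minus strand: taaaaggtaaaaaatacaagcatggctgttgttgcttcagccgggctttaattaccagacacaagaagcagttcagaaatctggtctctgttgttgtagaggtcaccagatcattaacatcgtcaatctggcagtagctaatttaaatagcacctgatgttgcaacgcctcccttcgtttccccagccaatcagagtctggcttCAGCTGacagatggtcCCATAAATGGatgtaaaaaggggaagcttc

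The Phox2a window was 70.4% G and C with 22 CG pairs, that of Tubb3 68.0% with 21, and that of S100b 53.6% with 2, against a median of 52.4% over the 32851 windows of the table. Elavl4 had 4 listed starts. The E-box and the CArG box stood 46 and 30 bases before its second start and did not overlap, and the third start, a few bases downstream, shared both. Over all windows of the same length and on both strands, 4271 (13%) held the E-box and 482 (1.47%) the CArG box. The SOX core motif ACAAAG, in 16.5% of all windows, was in none of the windows of Phox2a, Tubb3, Elavl4 and S100b. A match of letters is a description and not a binding site.

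Among the E18.5 controls, 6 of the 7 genes were higher in trachea than in lung and Erbb3 was lower. For each of the 7 the 4 tracheas and the 4 lungs did not overlap, and the share of all genes without overlap was not counted. All 7 differences passed edgeR's quasi-likelihood test at an adjusted p under 0.05, in a comparison in which 52.4% of all genes passed, 24.7% being higher and 27.7% lower in trachea. The fitted folds of S100b, Phox2a, Tubb3 and Sox10 were larger than those of Ret and Elavl4. Trachea and lung were counted in separate tables, so tissue and table cannot be told apart. The plot of levels by group shows every library.

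**Figure D1:**
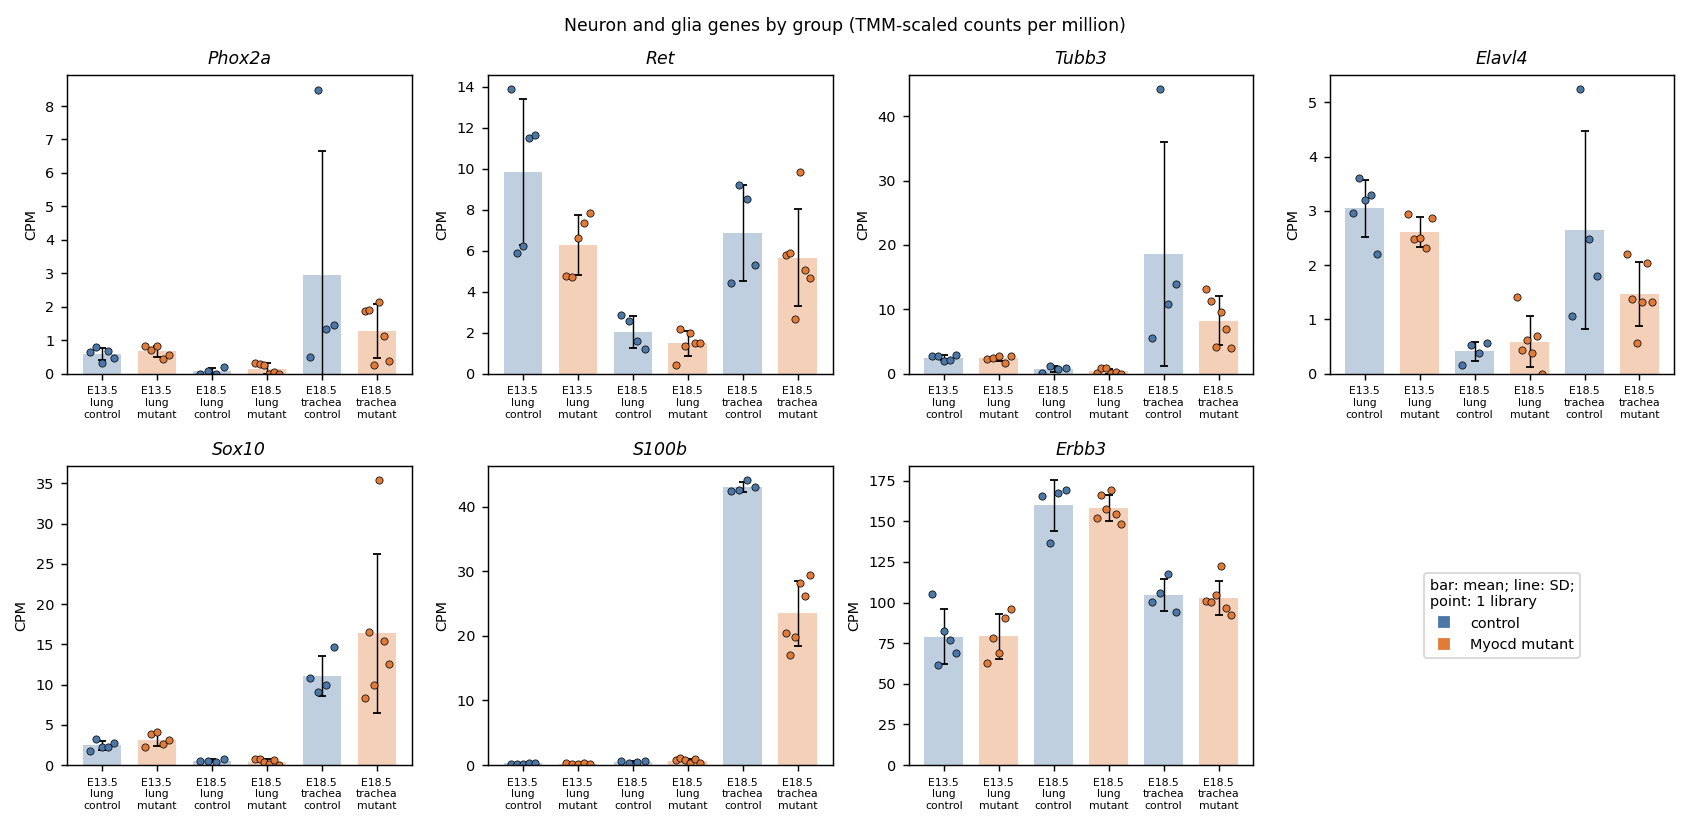
TMM-scaled CPM (linear axes from 0) of the 7 genes in the 6 groups; each point is 1 library, bars are means and lines the SD, cut at 0. S100b, Sox10, Tubb3 and Phox2a stand highest in the tracheas, Erbb3 in the E18.5 lungs and Ret in the E13.5 control lungs, and 1 control trachea (replicate 2) lies far above the others for Phox2a and Tubb3.

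Phox2a encodes a homeodomain factor of autonomic neurons. It was read at 0.488, 8.48, 1.35 and 1.47 CPM in control tracheas 1 to 4, and at 0, 0.0895, 0 and 0.199 CPM in the control lungs, where it had 8 reads in all. Only trachea control replicate 2 was far above the rest. The fitted difference was 39.6-fold (log2 fold change 5.31, SE 1.26, adjusted p = 0.00420). Without that trachea the log2 fold change was 3.94 (adjusted p = 0.00243), and with so few lung reads the size of the fold depends on the small count that the fit adds.

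Tubb3, the neuronal beta tubulin of axons and cell bodies, stood at 5.61, 44.3, 10.8 and 13.95 CPM in the control tracheas and at 0.170, 1.19, 0.687 and 0.915 CPM in the control lungs. Every trachea was several times above every lung. The difference was 25.03-fold (log2 fold change 4.65, SE 0.724, adjusted p = 0.000275), and 3.79 on the log2 scale without trachea control replicate 2 (adjusted p = 6.2e-05).

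Ret, the receptor for the GDNF family, and Elavl4, a neuronal RNA-binding protein, differed less between the tissues. Ret was at 4.43 to 9.20 CPM in control tracheas and at 1.19 to 2.85 CPM in control lungs (3.32-fold, log2 fold change 1.73, SE 0.388, adjusted p = 0.00298). Elavl4 was at 1.06 to 5.25 CPM in control tracheas and at 0.170 to 0.557 CPM in control lungs (6.38-fold, log2 fold change 2.67, SE 0.671, adjusted p = 0.00597). For both genes the groups were separate, with a narrower gap than for Tubb3.

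Sox10, the glial and neural crest transcription factor, was at 10.9, 9.04, 9.90 and 14.7 CPM in the control tracheas and at 0.475, 0.447, 0.412 and 0.795 CPM in the control lungs. The tracheas lay close together and far above the lungs (20.8-fold, log2 fold change 4.38, SE 0.318, adjusted p = 5.79e-07). Melanocytes also use Sox10: of their 5 markers only Pmel passed the filter, Tyr had no read in any E18.5 control, and the markers together were at 1.56 to 2.51 CPM in lung and 3.07 to 7.18 CPM in trachea. Their part in the Sox10 difference was not tested.

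S100b, a calcium-binding protein, had the largest fitted fold of the 7 genes. It was at 42.4, 42.6, 44.1 and 43.1 CPM in the control tracheas and at 0.645, 0.298, 0.481 and 0.676 CPM in the control lungs, an 82.3-fold difference (log2 fold change 6.36, SE 0.218, adjusted p = 2.12e-09). The 4 tracheas were nearly level. The 6 cartilage markers Col2a1, Acan, Matn1, Cnmd, Col9a1 and Comp, all of which rose as well, together made 9301 to 14370 CPM in the control tracheas and 3.70 to 6.98 CPM in the control lungs. The part of cartilage in the S100b difference was not tested.

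Erbb3, the neuregulin receptor, went the other way, at 94.4 to 117 CPM in control tracheas and 136 to 169 CPM in control lungs (1.54-fold lower in trachea, log2 fold change -0.62, SE 0.0971, adjusted p = 0.000265). Its level in lung was far from that of the other 6 genes, whose control lungs were all under 3 CPM. Epithelial cells also express Erbb3. The epithelial markers Epcam, Cdh1, Krt8, Krt18, Krt19 and Cldn4 together were at 1163 to 1266 CPM in control lungs and 1717 to 2051 CPM in control tracheas, 5 of the 6 being higher in trachea, and their part in the Erbb3 difference was not tested.

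Counted per kb of exon, which allows genes to be compared, S100b was the highest of the 7 in control tracheas at 29.02 CPM per kb ± 0.523 (SD, n = 4), ahead of Erbb3 at 17.4 ± 1.63 and Tubb3 at 9.99 ± 9.31. In E18.5 control lungs Erbb3 was at 26.6 CPM per kb ± 2.60 (SD, n = 4) and the next gene, Tubb3, at 0.397 ± 0.232. Sox10 was at 3.64 CPM per kb ± 0.810 in control tracheas and 0.175 ± 0.0581 in E18.5 control lungs. Erbb3 thus stood far above Sox10 per kb in lung, and nearer to it in trachea.

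**Figure D2:**
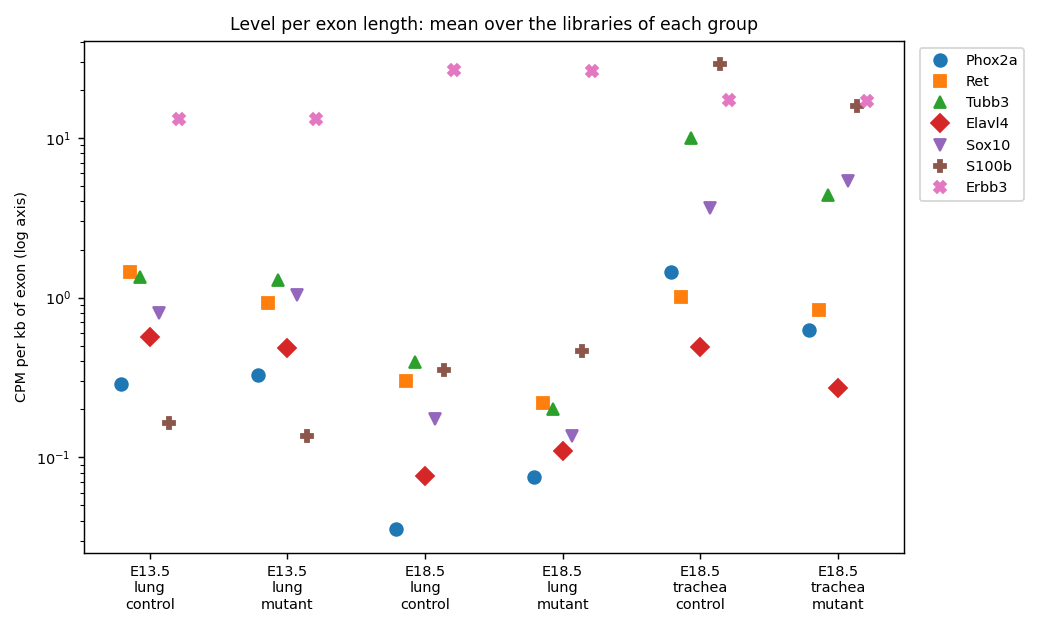
Mean CPM per kb of exon (log axis) of the 7 genes in each of the 6 groups, with no error bars. Erbb3 lies far above the other genes in every lung group. In control tracheas S100b (29.02 CPM per kb) lies above Erbb3 (17.4), and Tubb3 (9.99, with replicate 2 at 23.7) lies below it. In mutant tracheas S100b (15.8) lies just under Erbb3 (17.1).

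From E13.5 to E18.5, the control lungs changed in all 7 genes. The 4 neuron genes and Sox10 fell, and S100b and Erbb3 rose, by edgeR's quasi-likelihood test, in a comparison in which 80.0% of all genes passed, 40.4% being higher and 39.6% lower at E18.5. The stages also differ in the lobes taken and were counted in separate tables, so the effects of stage, lobe and table cannot be told apart. For the 5 genes that fell, no E18.5 lung reached the lowest E13.5 lung. How many of all genes were separated in this way was not counted.

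Phox2a was at 0.660, 0.792, 0.333, 0.681 and 0.473 CPM in the E13.5 control lungs and fell by 2.97 on the log2 scale (SE 0.639, adjusted p = 0.000743). Elavl4 stood at 2.95, 3.60, 3.21, 3.29 and 2.21 CPM at E13.5 and fell by 2.83 (SE 0.300, adjusted p = 1.02e-06). Those were the largest falls among the neuron genes. Ret was at 9.84 CPM ± 3.57 (SD, n = 5) at E13.5 and 2.05 CPM ± 0.787 (SD, n = 4) at E18.5 (log2 fold change -2.19, SE 0.320, adjusted p = 3.88e-05). Tubb3 was at 2.51 CPM ± 0.393 (SD, n = 5) and then 0.741 CPM ± 0.433 (SD, n = 4) (log2 fold change -1.69, SE 0.368, adjusted p = 0.000845).

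Among the glial genes, Sox10 was at 1.77, 3.24, 2.29, 2.23 and 2.72 CPM at E13.5 and fell by 2.15 on the log2 scale (SE 0.272, adjusted p = 6.03e-06). S100b was at 0.144 to 0.378 CPM at E13.5 and 0.298 to 0.676 CPM at E18.5; the ranges met, and its rise of 1.14 (SE 0.384, adjusted p = 0.0145) rests on 32 and 60 reads in all. Erbb3 rose: it was at 79.1 CPM ± 16.7 (SD, n = 5) at E13.5 and 159.7 CPM ± 15.6 (SD, n = 4) at E18.5 (log2 fold change 1.07, SE 0.132, adjusted p = 8.2e-06), with every E18.5 lung above every E13.5 lung. The epithelial markers together went from 483 to 598 CPM at E13.5 to 1163 to 1266 CPM at E18.5, and their part in the rise of Erbb3 was not tested.

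Ordered by mean level over the 6 groups, the genes followed different patterns. Phox2a, Tubb3 and Sox10 ran from trachea through E13.5 lung to E18.5 lung. The 2 trachea groups overlapped for each of the 3 genes, as did control and mutant lungs of each stage, and the E13.5 lungs did not overlap the E18.5 lungs. Tracheas overlapped E13.5 lungs for Phox2a but not for Tubb3 or Sox10. For Ret the E13.5 control lungs were highest, and every neighbour in the order overlapped the next. For Elavl4 the E13.5 control lungs, control tracheas and E13.5 mutant lungs overlapped in turn, and the mutant tracheas lay under the E13.5 mutant lungs. For S100b control tracheas came first, mutant tracheas second and all lungs last, with no overlap at the first 2 steps. For Erbb3 the E18.5 lungs came first without overlap, and the tracheas and then the E13.5 lungs followed with overlap. The share of all genes with such gaps between groups was not counted.

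In E13.5 lungs, none of the 6 tested genes passed edgeR's quasi-likelihood test between mutant and control, in a comparison in which 0.206% of all genes passed. S100b was read too rarely to be tested. DESeq2 called 0 as well. Ret was the only one of the 6 with an unadjusted p under 0.05 (adjusted p = 0.998). It stood at 13.9, 5.90, 6.24, 11.5 and 11.7 CPM in the controls and at 4.77, 4.70, 6.62, 7.35 and 7.86 CPM in the mutants. The controls were spread over a wide range that the upper 3 mutants fell within (log2 fold change -0.64, SE 0.246).

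The other E13.5 values lay near 0. Phox2a had a log2 fold change of 0.15 (95% interval -0.43 to 0.73), Tubb3 of -0.06 (-0.41 to 0.29) and Elavl4 of -0.22 (-0.54 to 0.10). Sox10 was at 2.18, 3.88, 4.04, 2.59 and 3.10 CPM in the mutants, against controls of up to 3.24 CPM, with a log2 fold change of 0.38 (-0.07 to 0.82). Erbb3 had a log2 fold change of 0.01 (-0.31 to 0.33).

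In E18.5 lungs, none of the 6 tested genes passed edgeR's quasi-likelihood test, nor did any reach an unadjusted p under 0.05, in a comparison in which 0.578% of all genes passed. DESeq2 also called 0. Phox2a was not tested, with 8 reads over the 4 controls and 22 over the 6 mutants. Mutant replicate 6, with 30.4 M reads, had 0 reads of Phox2a, Tubb3, Elavl4 and Sox10, which allows up to 0.0988 CPM of each by counting error alone, while Ret, S100b and Erbb3 were read there at 1.48, 0.322 and 148 CPM. Tubb3 in the mutants had a lowest value of 0, a median of 0.206 and a highest of 0.932 CPM, and its log2 fold change of -0.99 had a 95% interval of -2.79 to 0.81. The 95% intervals of Elavl4 (-1.08 to 2.13), Sox10 (-1.97 to 1.24), S100b (-0.75 to 1.54) and Ret (-1.29 to 0.36) also held 0. Erbb3, with far more reads, had a log2 fold change of -0.01 with a 95% interval of -0.15 to 0.13.

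In E18.5 tracheas, none of the 7 genes passed edgeR's quasi-likelihood test, in a comparison in which 0.0710% of all genes passed. S100b came nearest and was the 1 gene with an unadjusted p under 0.05. It was at 42.4, 42.6, 44.1 and 43.1 CPM in the controls, and in the 6 mutants at a lowest of 17.02, a median of 23.3 and a highest of 29.5 CPM. Every mutant was below every control, and the share of all genes without overlap was not counted. The difference was 1.81-fold (log2 fold change -0.85, SE 0.157, 95% interval -1.19 to -0.52, adjusted p = 0.0733). It passed with DESeq2 (log2 fold change -0.84, adjusted p = 0.000779), with no filter on low counts (adjusted p = 0.0110) and without trachea mutant replicate 4 (-0.92, adjusted p = 0.0399).

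The 6 cartilage markers were read in the same tracheas. Each had a log2 fold change below 0, with a median of -0.94 and 0 of 6 past the test. Matn1, however, was at 94.1, 69.7 and 114 CPM in mutant replicates 4, 5 and 6, above every control (35.7 to 66.6 CPM). In mutant replicates 1, 2 and 3 it was at 19.4, 17.9 and 11.4 CPM. The summed level of the 6 markers was 9301, 11510, 14370 and 14270 CPM in the controls. In the mutants the sum had a lowest of 2925, a median of 5067 and a highest of 11660 CPM. Mutant replicates 5 and 6, with cartilage sums of 11120 and 11660 CPM inside the control range, had S100b at 26.1 and 29.5 CPM, still below every control. Single markers differed in these 2 libraries. Col2a1 was at 8636 and 8994 CPM, inside the control range (6434 to 10510 CPM). Acan was at 815 and 875 CPM, below every control (884 to 1360 CPM), and Matn1 was above every control. Per 1000 CPM of the cartilage list, S100b was at 3.02 to 4.56 CPM in the controls and at 2.35 to 6.75 CPM in the mutants. Among glial genes, Sox10 had a log2 fold change of 0.57 (0.19 without mutant replicate 4) and the 16 Schwann and satellite glia genes a median of 0.02, against 0.02 over all genes, with none past the test. The part of cartilage in the S100b values was not tested.

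**Figure D3:**
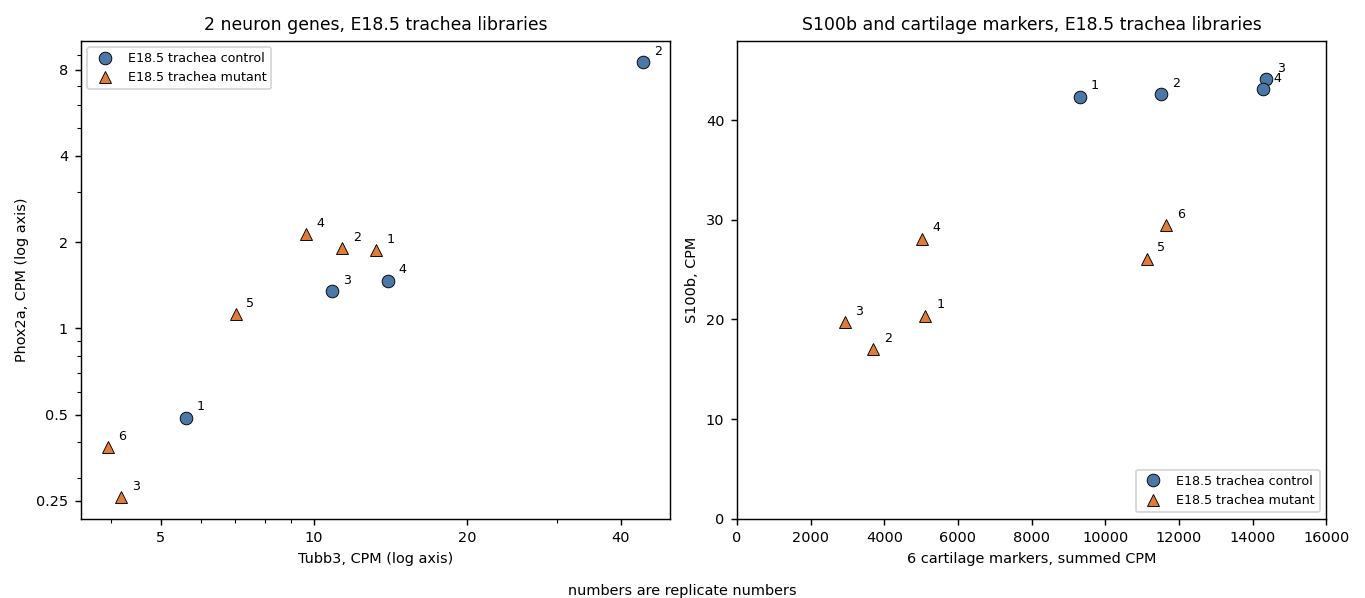
Left, Phox2a against Tubb3 (CPM, both axes log) and right, S100b against the summed CPM of 6 cartilage markers (linear axes from 0) in the 10 E18.5 trachea libraries; circles are controls, triangles mutants, and numbers the replicates. Phox2a and Tubb3 climb together up to control replicate 2 at 8.48 and 44.3 CPM, and all mutants lie under 30 CPM of S100b, also replicates 5 and 6, with cartilage sums of 11120 and 11660 CPM.

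For the neuron genes of the trachea, the control values hung on replicate 2. Tubb3 was at 5.61, 44.3, 10.8 and 13.95 CPM in the controls, and at a lowest of 3.94, a median of 8.33 and a highest of 13.2 CPM in the mutants. The groups overlapped (log2 fold change -1.16, SE 0.532, 95% interval -2.33 to 3e-04, adjusted p = 0.733), and without control replicate 2 the value was -0.27. Phox2a in the mutants had a lowest of 0.258, a median of 1.501 and a highest of 2.13 CPM (log2 fold change -1.19, SE 0.788, adjusted p = 0.773), and 0.23 without control replicate 2, which turned its direction. Elavl4 was at 1.06, 5.25, 2.48 and 1.80 CPM in the controls and 0.567 to 2.20 CPM in the mutants (log2 fold change -0.82, adjusted p = 0.776, and -0.24 without control replicate 2). Ret was at 4.43 to 9.20 CPM in controls and 2.68 to 9.85 CPM in mutants (log2 fold change -0.26, 95% interval -0.996 to 0.478, and -0.08 without control replicate 2).

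Of the glial genes, Sox10 in the mutant tracheas had a lowest of 8.36, a median of 13.99 and a highest of 35.4 CPM, against 9.04 to 14.7 CPM in the controls (log2 fold change 0.57, 95% interval -0.17 to 1.32, adjusted p = 0.756). The highest was mutant replicate 4, without which the log2 fold change was 0.19 (adjusted p = 0.900). That library held 12.4 M reads. Its TMM scaling factor was 0.796, against 0.962 to 1.055 in the other tracheas, and a lower factor gives higher CPM values. Erbb3 was at 94.4 to 117 CPM in controls and 92.2 to 122 CPM in mutants (log2 fold change -6e-04, 95% interval -0.23 to 0.23).

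**Figure D4:**
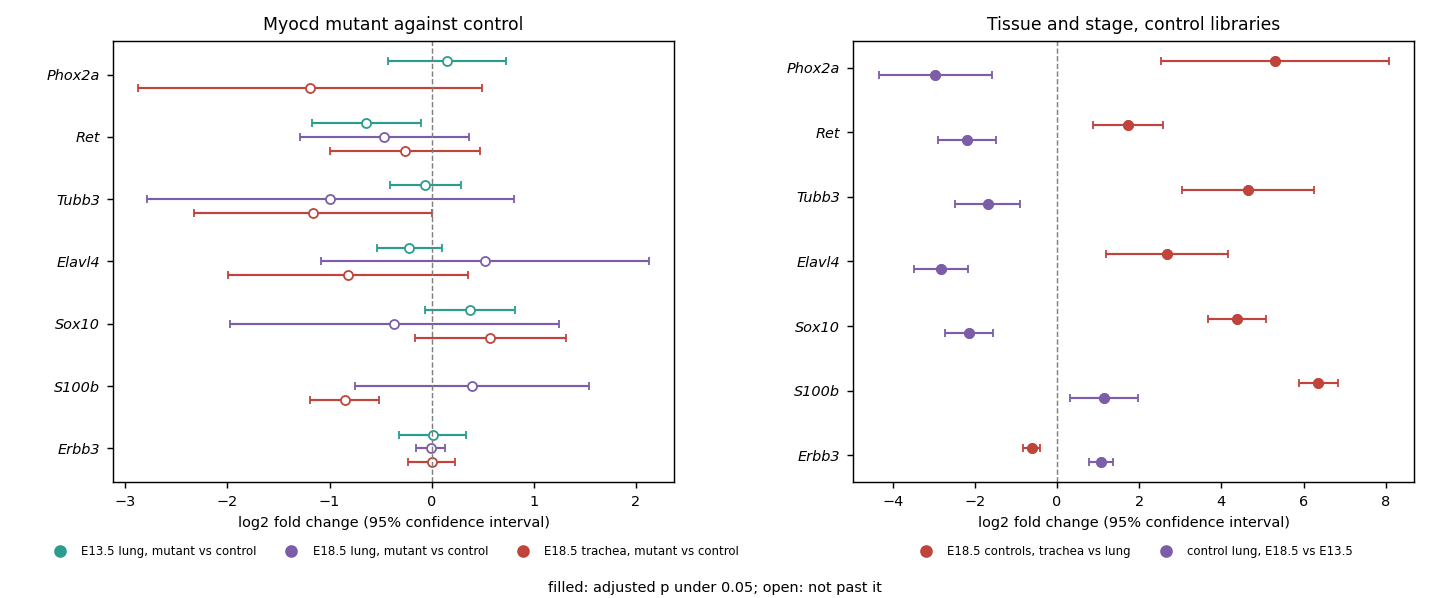
Log2 fold changes with 95% confidence intervals from edgeR's quasi-likelihood fit, mutant against control in each tissue and stage (left) and between tissues and stages of control libraries (right); filled points passed at an adjusted p under 0.05. All points on the left are open, S100b in trachea having the interval farthest from 0, and all 14 on the right are filled. S100b in E13.5 lung and Phox2a in E18.5 lung were too low to be tested between mutant and control.

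The mutant effects themselves were compared between tissues and between stages. None of the 7 genes passed for trachea against lung at E18.5, where 0.0252% of all genes passed, and none for E18.5 against E13.5 lung, where 0.0268% passed. DESeq2 called 0 of the 7 in both. S100b was the 1 gene with an unadjusted p under 0.05 in the first comparison, where the second had 0, with a difference of effects of -1.19 on the log2 scale (SE 0.388, adjusted p = 0.441). Tubb3 there had -0.10 (95% interval -2.56 to 2.37). The intervals for Erbb3 were the narrowest, -0.20 to 0.30 between tissues and -0.37 to 0.32 between stages.

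Within the 10 trachea libraries, the neuron genes moved together after the group means were removed. The correlation of log2 CPM was 0.97 for Phox2a with Tubb3, 0.84 for Phox2a with Elavl4, 0.81 for Phox2a with Ret and 0.81 for Tubb3 with Elavl4. Without control replicate 2 (n = 9) these were 0.95, 0.74, 0.82 and 0.67. Sox10 had 0.22 with Phox2a, 0.04 with Tubb3 and 0.40 with S100b (0.45, 0.24 and 0.40 without that library), and S100b had -0.24 with Tubb3. Over all 30 libraries, Phox2a had 0.68 with Tubb3 and 0.66 with Elavl4, and Tubb3 had 0.63 with Elavl4. Ret had 0.01 with Phox2a, 0.32 with Tubb3 and -0.12 with Elavl4. Sox10 there had 0.57 with Phox2a, 0.54 with Tubb3 and 0.71 with Elavl4. All of these are descriptions over 10 or 30 tissue samples, and the genes of a point share its library, depth and dissection.

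The genes most like each member over all 30 libraries, by the Pearson correlation of deviations from the 6 group means among 15642 genes of at least 1 CPM on average, were Ntm for Elavl4 (0.903) and Sort1 for Erbb3 (0.901). Both stayed first without trachea control replicate 2 (0.922 and 0.925). For the others the first gene changed without that library: Cntn1 to Cryz for Phox2a (0.703 and 0.776), Tram1l1 to Srd5a1 for Ret (0.714 and 0.733), and Rab39b to Spock3 for Tubb3 (0.766 and 0.850). For Sox10 it went from 1700037C18Rik (0.841) to 1700007L15Rik (0.850), and for S100b from Ccdc96 (0.695) to 1700029J07Rik (0.699). By Spearman correlation over the 30 libraries, Sort1 was again first for Erbb3 (0.831) and Ccdc96 for S100b (0.741). For Elavl4, Nr2c1 was first (0.722) and Ntm second (0.708). Pearson and Spearman shared 0 of the first 3 genes for Phox2a, Ret, Tubb3 and Sox10. Each first gene is the highest of all those searched, and no chance level was set.

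Other genes of autonomic neurons were followed as a list of 25, chosen like the other lists with earlier results known. Between control trachea and lung at E18.5, 14 of the 20 tested rose and none fell, with a median log2 fold change of 3.63 against -0.05 over all genes. Of all genes, 24.7% were higher and 27.7% lower in trachea. Isl1, a factor of neuron differentiation, went from 0.203 CPM ± 0.0675 to 19.9 CPM ± 2.83 (SD, n = 4 each) (log2 fold change 6.57, SE 0.278, adjusted p = 8.94e-09). Slc5a7, the choline transporter of cholinergic nerve ends, had a log2 fold change of 6.26 and Nefm, a neurofilament, of 5.39. Without trachea control replicate 2, 16 of 21 tested rose and 1 fell, with a median of 3.36.

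From E13.5 to E18.5 in control lung, 14 of 20 tested autonomic neuron genes fell and 3 rose, where 39.6% of all genes fell and 40.4% rose. Nefm fell by 5.63 on the log2 scale and Isl1 by 4.56, while Tbx20, a T-box factor that is also a heart gene, rose by 3.98. Stmn2, also on the list, was higher at E18.5 too, at 5.995 to 6.695 CPM at E13.5 and 14.07 to 20.28 CPM at E18.5. Of the 5 cardiac muscle markers, 4 were tested and all 4 rose between these stages. The sum over all 5 was 8.66 to 14.02 CPM at E13.5 and 232 to 437 CPM at E18.5, and their part in the Tbx20 value was not tested.

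Between mutant and control at E13.5, none of the 7 neuroendocrine markers tested passed, and the sum over all 8 on the list was 260 to 339 CPM in control lungs and 267 to 334 CPM in mutant lungs. In E18.5 lung, 0 of the 11 autonomic neuron genes tested passed. In the trachea, 0 of 24 autonomic neuron genes passed, with 19 of 24 log2 fold changes below 0 and a median of -0.86, which was -0.41 without control replicate 2. Stmn2, a microtubule regulator of growing axons and the most abundant of the list in control tracheas, was at 31.2 CPM ± 21.4 (SD, n = 4) in controls, with 63.1 CPM in replicate 2, and 15.3 CPM ± 5.68 (SD, n = 6) in mutants (log2 fold change -1.01, adjusted p = 0.667).

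The list of Schwann and satellite glia genes held 16 genes. In control trachea against lung 9 of 14 tested rose and 2 fell, where 24.7% of all genes were higher and 27.7% lower. Sox8, a relative of Sox10, went from 0.249 CPM ± 0.120 to 7.21 CPM ± 1.203 (SD, n = 4 each; log2 fold change 4.81, SE 0.424, adjusted p = 2.86e-06), and Foxd3, a neural crest factor, had a log2 fold change of 4.30. From E13.5 to E18.5 in control lung 5 of 13 fell and 3 rose, where 39.6% of all genes fell and 40.4% rose. Pou3f1, a factor of promyelinating Schwann cells, fell by 4.82 and Sox8 by 1.94. Fabp7, a fatty acid binding protein of immature glia, fell by 1.40, and Pmp22, which is also expressed outside nerves, rose by 1.49. None of the list passed between mutant and control in any tissue or stage (14, 9 and 16 tested).

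The partners of Ret were split. Between control trachea and lung 4 of 8 ligands and co-receptors rose and 1 fell, where 24.7% of all genes were higher and 27.7% lower. Artn, a ligand, had a log2 fold change of 2.55 and its co-receptor Gfra3, which is also in the glia list, of 4.26, while Gfra2, the neurturin co-receptor, fell from 129 CPM ± 28.9 in lung to 32.9 CPM ± 7.61 in trachea (SD, n = 4 each; log2 fold change -1.98, SE 0.195, adjusted p = 7.18e-06). With stage in control lung Gfra2 rose by 2.80 and Artn by 2.07, and Gfra4 fell by 2.86 and Gfra1, the GDNF co-receptor, by 1.004. None of the 8 passed between mutant and control. Gfra1 was at 6.70 CPM ± 1.54 (SD, n = 4) in E18.5 control lungs and 3.71 CPM ± 1.40 (SD, n = 6) in mutants (log2 fold change -0.85, SE 0.243, adjusted p = 0.178).

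Among the ligands and partners of Erbb3, 2 of 5 tested were higher in trachea than in lung: Nrg1, a neuregulin, by 1.65 on the log2 scale and Erbb2, the kinase partner of ERBB3, by 0.82. With stage in lung Nrg2 fell by 1.51 and Nrg1 by 0.94, and Egfr rose by 0.30, a call lost without E13.5 control replicate 2 or E18.5 control replicate 1. The beta tubulin and ELAVL relatives of Tubb3 and Elavl4 included broadly expressed genes. In lung, 8 of 9 fell with stage, with Tubb5 at 2965 CPM ± 77.9 (SD, n = 5) at E13.5 and 547 CPM ± 73.7 (SD, n = 4) at E18.5, while Elavl2 fell by 3.40 on the log2 scale. Between tissues 4 of 9 were higher in trachea and 1 lower, with Elavl3 at 3.37 and Elavl2 at 2.31. Of 10 neurotrophins and axon guidance cues, 4 were higher and 3 lower in control trachea than in lung, with the neurotrophin Ntf3 at 2.92, and the guidance cues Sema3a at -3.60 and Slit2 at -3.49. None of these 3 lists had a gene past the test between mutant and control. Beside their counts by tissue and stage, 24.7% of all genes were higher and 27.7% lower in trachea. With stage in lung, 39.6% of all genes fell and 40.4% rose.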

How the data were processed

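RNA of 30 libraries was sequenced as single reads of 75 bases with a kit that does not mark strand, per the labels' protocols. The deposited values are raw counts of reads per gene in 3 tables, 1 each for E13.5 lung, E18.5 lung and E18.5 trachea, with 53715 genes. The submitters' processing notes name STAR, featureCounts 1.6.2, DESeq2, GRCm38 and GENCODE vM17; versions of STAR and DESeq2 are not given in the sources used here. Each library is 1 embryo's lung or trachea, per the labels.

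Each comparison was fitted over all genes that passed filterByExpr with edgeR 4.0.16 in R 4.3.3 (TMM factors, robust quasi-likelihood test, Benjamini-Hochberg adjustment, threshold 0.05), using the libraries of its groups. Levels are CPM with TMM factors over all 30 libraries. The fit was tested on simulated data. No 2 libraries of a group agreed within sampling noise. Replicate numbers paired control trachea with control lung at E18.5 (correlation of deviations from 0.113 to 0.215 in 4 of 4 pairs). Mutant lungs were also each most like the mutant trachea of their own number (6 of 6, 0.057 to 0.183). The main tests took all libraries as independent and did not use this pairing. Between mutants and controls the correlations by number were of both signs in each tissue and stage. In E18.5 lung, 3 of 4 controls were most like the mutant of their number (-0.011 to 0.205). Alternatives were DESeq2 1.42.0, RLE and upper-quartile factors, no filter, a replicate block and leaving out each library. Leaving out trachea control replicate 2 from list counts and likeness was added after seeing the data.

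The members and lists were chosen with earlier results of these data known. Named were the 7 genes, Myocd, up to 4 genes a list past the test by size (otherwise the 2 most abundant) and the genes most like each member. Promoter sequences are RefSeq's on GRCm38.p6. Intervals for a count of 0 (3 reads) cover counting error only. Results for some genes of the lists are not reported here.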

Additional observations from a re-analysis of the deposited data

Results flagged for a closer look

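Of 42 sets of libraries (7 genes in 6 groups), 4 held a library that stood apart from its group by Dixon's criterion, which chance alone meets in about 1 in 20. Phox2a was at 8.48 CPM in trachea control replicate 2, with the next control at 1.47 CPM. Sox10 was at 35.4 CPM in trachea mutant replicate 4, with the next mutant at 16.5 CPM. Sox10 was at 0.795 CPM in E18.5 lung control replicate 4, with the next at 0.475 CPM. Erbb3 was at 136 CPM in E18.5 lung control replicate 2, with the next at 166 CPM.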

How the results depend on the processing

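In the tissue and stage comparisons, 184 of 184 values of the 7 genes kept their direction and call under the alternatives run, although the number of the 7 past the test by stage was 5 to 7 when 1 library was left out, where fewer of them passed the filter on low counts. Counts of all genes past the test moved more. For E13.5 lung 34 became 79 with DESeq2, 0 with the replicate block and 17 to 56 without 1 library. For E18.5 lung 101 became 262 with DESeq2, 192 with no filter, 66 with the block and 26 to 205 without 1 library. For trachea 13 became 99, 22, 28 and 3 to 16 in the same order. The 5 genes whose mutant effect differed between tissues became 65 with DESeq2 and 2 to 9 without 1 library, and the 5 between stages 42 and 3 to 19.

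Between mutant and control trachea, 0 of the 7 became 1, S100b, with DESeq2, with no filter and without mutant replicate 4 (0 to 1 over the libraries left out); with the block, where mutants and controls share only a number, S100b had -1.02 (adjusted p = 0.0851).

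Directions that turned belonged to values that had not passed. Without 1 library, Erbb3 ran from -0.0716 to 0.14 and Tubb3 from -0.13 to 0.039 in E13.5 lung, Erbb3 from -0.0796 to 0.0124 in E18.5 lung (0.0226 with the block), and Phox2a from -1.55 to 0.23 and Erbb3 from -0.0659 to 0.0499 in trachea. Erbb3 in trachea was 0.0103 with DESeq2, 0.0123 with RLE factors, 0.0257 with upper-quartile factors and 0.0581 with the block. The effect's difference between tissues ran from -0.44 to 0.80 for Tubb3 (0.28 with the block) and from -0.0072 to 0.12 for Erbb3 (-0.008 with no filter), and between stages from -0.014 to 0.36 for Ret and from -0.15 to 0.057 for Erbb3. The causes were not tested. Phox2a in E18.5 lung and S100b in E13.5 lung were too low to test between mutant and control.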
